A study of Mus musculus with 6 samples.

Results

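Liver endothelium was followed through 43 marker genes, 14 typical of the sinusoidal endothelium and 29 shared by endothelia in general, in livers of F1 males, the sons of exposed or control fathers. The genes were taken by name from a list and matched to the table on the Ensembl ID, and all 43 were among its 53715 genes. The series holds 6 libraries of polyadenylated RNA from frozen liver, taken at 8 weeks of age from male mice of outbred ICR stock. The 3 control F1 libraries carry the label control, and the 3 FR F1 libraries carry the label of a paternal famine, while the series title names an overdiet of the fathers. FR is not spelled out in the labels, and neither sire number nor separate animals are stated, so the p-values cover the spread among these 6 libraries alone, which may be technical. The only comparison in the design is FR F1 against control F1, which asks how offspring liver differs after the fathers' exposure.

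Liver sinusoidal endothelial cells line the low-pressure capillaries between hepatocyte plates. They lack a continuous basement membrane, are perforated by fenestrae, and take up hyaluronan, immune complexes and other waste from blood through scavenger receptors. Endothelia of portal and central vessels share with them the receptors for vascular endothelial growth factor and angiopoietin, the junction proteins and the ETS and SOX transcription factors, but carry little of the scavenger set. Several members are also made elsewhere in liver, such as Mrc1 and Maf in macrophages, Gata4 in stellate cells, Aqp1 in bile ducts, and Vwf and Pecam1 in platelets.

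Endothelial marker genes had higher values in FR F1 than in control F1 livers in most members of both classes. The log2 fold change was positive in 43 of 43 members, where 6517 of the 13022 genes tested were positive. Every FR F1 library lay above every control F1 library in 34 of the 43 members, against 12.5% of all genes. Past the threshold were 2 members, Cyyr1 and Jam2, both higher, in the quasi-likelihood test of edgeR with Benjamini-Hochberg adjustment over 13022 genes at 0.05 (n = 3 per group). Among all genes 0.392% were called higher, 0.445% lower and 0.837% in either direction. At an unadjusted p under 0.05, 33 members were higher and 0 lower, where 9.02% of all genes were higher. DESeq2 called 15 of the 43 higher against 1.94% of all genes, and limma-voom called 3 against 0.346%. In RNA of whole liver, more cells of a type and more RNA per cell cannot be told apart.

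All 43 members passed the filter on low counts, about 3.97 CPM (counts scaled to a common library size with TMM factors) in at least 3 libraries. In 12 of them fewer than 3 control libraries reached that level, so they entered the test through the FR F1 libraries in part, and Cyyr1 wholly so. Among the 31 members that reached it in every control library, the median log2 fold change was 0.85, the groups did not overlap in 23, and Jam2 was the single member called. Library totals ran from 2279755 to 2730160 counts. The highest count per base of the longest transcript among the members was 0.187, in Clec4g.

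**Figure D1:**
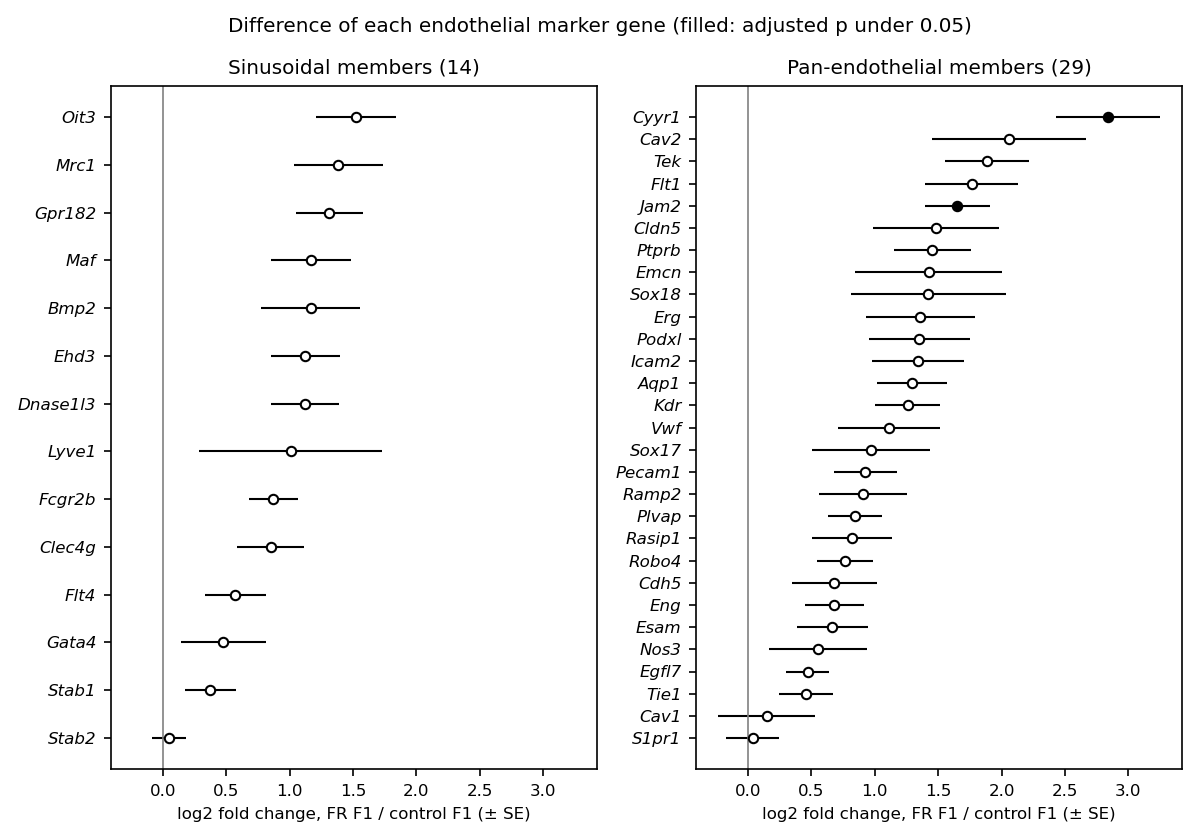
Log2 fold change of FR F1 over control F1 for each of the 43 members with its standard error, 14 sinusoidal genes on the left and 29 pan-endothelial genes on the right, ordered by value; filled points passed the adjusted threshold of 0.05. All points lie above 0, from 0.037 for S1pr1 to 2.84 for Cyyr1, and only Cyyr1 and Jam2 are filled.

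Upstream sequence is shown because Erg, one of the members, encodes a factor of the ETS family, which reads a GGAA core. RefSeq starts were found for 22 of the 43 members (assembly GRCm38.p6), and the 250 bases before each start were searched for AGGAAG on both strands, the complement being CTTCCT. Those letters stood upstream of 14 of the 22 genes, or 63.6%, against 32.3% of the 27025 genes in the same table. AGATAA, a letter string of GATA factors, stood upstream of 1 of the 22 (4.55% against 11.4%), and ACAAAG, one of SOX factors, upstream of 3 (13.6% against 18.6%). No string contains another, no test was made, and a match is not a bound site. These shares describe genes listed as endothelial markers, and their relation to the difference between the groups was not tested. Among the windows that touch no annotated exon, those of Flt1, Clec4g and Eng hold the ETS letters, while those of Tek, Cav2 and the first listed start of Cav1 do not. Each line gives the 150 bases before the start, 5′ to 3′ on the gene's strand, with the ETS letters of either strand in capitals.
Flt1, chr5:147726012-147726161, minus strand: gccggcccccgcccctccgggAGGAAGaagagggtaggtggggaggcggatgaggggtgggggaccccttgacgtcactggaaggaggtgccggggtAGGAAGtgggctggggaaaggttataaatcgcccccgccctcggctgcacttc
Clec4g, chr8:3720652-3720801, minus strand: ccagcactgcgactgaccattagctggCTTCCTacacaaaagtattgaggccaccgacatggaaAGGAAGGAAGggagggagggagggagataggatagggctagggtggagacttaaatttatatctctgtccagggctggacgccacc
Eng, chr2:32646445-32646594, plus strand: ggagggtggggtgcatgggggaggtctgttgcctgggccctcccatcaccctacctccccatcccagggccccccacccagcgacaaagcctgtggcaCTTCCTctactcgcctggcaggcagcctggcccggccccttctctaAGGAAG
Tek, chr4:94739139-94739288, plus strand: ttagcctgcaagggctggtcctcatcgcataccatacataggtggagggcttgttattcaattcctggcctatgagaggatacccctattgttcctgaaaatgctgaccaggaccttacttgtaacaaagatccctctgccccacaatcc
Cav2, chr6:17281035-17281184, plus strand: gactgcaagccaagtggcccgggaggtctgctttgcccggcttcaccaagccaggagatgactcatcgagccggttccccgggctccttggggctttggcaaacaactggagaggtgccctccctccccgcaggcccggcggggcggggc
Cav1, chr6:17306185-17306334, plus strand: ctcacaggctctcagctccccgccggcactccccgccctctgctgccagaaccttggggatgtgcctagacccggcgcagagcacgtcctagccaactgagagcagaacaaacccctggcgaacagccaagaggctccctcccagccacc
The letters were found upstream of members at both ends of the order of differences. Cyyr1, with the highest log2 fold change, and Stab2, among the lowest, both hold the ETS letters within 250 bases.

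Sinusoidal genes were higher in FR F1 livers by a median log2 fold change of 1.06 over 14 members, against 0.00 for all genes tested, and edgeR called 0 of the 14. An edgeR unadjusted p under 0.05 was found for 10 of them, DESeq2 called 7 and limma-voom 0. Among all genes the shares higher were 9.02%, 1.94% and 0.346%. The groups did not overlap in 11 of the 14, with FR F1 higher, against 12.5% of all genes. Summed over the class, the level was 674, 557 and 789 CPM in control F1 replicates 1, 2 and 3 and 1139, 1069 and 1218 CPM in FR F1 replicates 1, 2 and 3, so the groups did not overlap.

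Among the receptors of endocytosis, Stab2 encodes stabilin-2, the main hyaluronan clearance receptor of the sinusoid (ENSMUSG00000035459.17, chromosome 10, 86841198 to 87008025 on mm10). Its level was 145, 155 and 164 CPM in the control F1 libraries and 147, 152 and 182 CPM in the FR F1 libraries. The groups overlapped, and the log2 fold change was 0.049 ± 0.13 (SE; 95% interval -0.25 to 0.35; edgeR adjusted p = 0.858). Its paralog Stab1, a scavenger receptor also made by macrophages, had 0.37 ± 0.20 and likewise overlapped between the groups.

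Fcgr2b, the inhibitory receptor for IgG that clears small immune complexes in sinusoids (chromosome 1, 170958617 to 170976547), had 55.1, 41.0 and 66.7 CPM in control livers and 106, 96.5 and 96.0 CPM in FR F1 libraries. All FR F1 values were above the highest control, with a log2 fold change of 0.87 ± 0.19 (edgeR adjusted p = 0.0910). Ehd3, which encodes an EH-domain protein of endocytic recycling (chromosome 17, 73804134 to 73832094), had 64.6, 32.5 and 68.3 CPM against 113, 109 and 140 CPM. Control replicate 2 was the lowest library and the groups were apart, with 1.12 ± 0.27 on the log2 scale (edgeR adjusted p = 0.107).

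Clec4g, the lectin gene of the sinusoid (chromosome 8, 3707064 to 3720651), had the highest level per length of all members, 51.8 CPM per kilobase of its longest transcript over the 6 libraries. Its values were 40.8, 41.5 and 77.1 CPM in the controls and 88.2, 89.5 and 111 CPM in FR F1 libraries, a log2 fold change of 0.85 ± 0.26 (edgeR adjusted p = 0.173). The FR F1 libraries were all higher, although control replicate 3 came close to them. It shares 146 of 2462 exonic bases with an antisense gene at a mean of 12.3 CPM in the controls and 17.2 CPM in the FR F1 libraries, and whether strand was used in counting is not stated in the labels. Mrc1, the mannose receptor, had a log2 fold change of 1.38 ± 0.35. Lyve1, a hyaluronan receptor shared with lymphatic vessels, was sparse, with 14, 0 and 12 counts in control F1 and 19 counts in each FR F1 library, and its value of 1.01 ± 0.72 had the largest standard error of the class.

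Genes of the 3 secreted proteins had groups that were apart in each case. None passed the edgeR threshold, though 3 of 3 had an edgeR unadjusted p under 0.05. Of all genes, 12.5% had every FR F1 library above every control, and 9.02% were higher at that p. Oit3, which encodes a secreted protein with a zona pellucida domain (chromosome 10, 59422958 to 59441778), had 12.6, 12.6 and 26.8 CPM in control livers and 42.6, 52.3 and 56.2 CPM in FR F1 libraries. It had the highest log2 fold change of the sinusoidal class, 1.52 ± 0.31 (edgeR adjusted p = 0.0780), with the groups apart. Dnase1l3, a nuclease gene for chromatin in plasma (chromosome 14, 7964533 to 7994573), had 40.8, 34.3 and 71.0 CPM against 102, 96.9 and 120 CPM. Control replicate 3 was again the highest control and still below all FR F1 libraries, at 1.12 ± 0.27 on the log2 scale (edgeR adjusted p = 0.106). Bmp2, a ligand from endothelium that raises hepcidin in hepatocytes, had 1.17 ± 0.39.

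Gpr182, an atypical chemokine receptor gene (chromosome 10, 127747276 to 127751732), had the smallest p of the sinusoidal class. It had 26.5, 17.6 and 32.6 CPM in the controls and 64.7, 49.7 and 77.1 CPM in FR F1 libraries, a log2 fold change of 1.31 ± 0.27 (edgeR adjusted p = 0.0780). The lowest FR F1 library stood above the highest control. The transcription factor genes of the class differed in how well the groups separated. Maf, a factor of sinusoidal identity, had 1.17 ± 0.31 with groups apart, and Gata4, a factor required for sinusoidal differentiation, had 0.48 ± 0.33 with groups that overlapped. Flt4, the receptor gene for VEGF-C, had 0.57 ± 0.24.

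**Figure D2:**
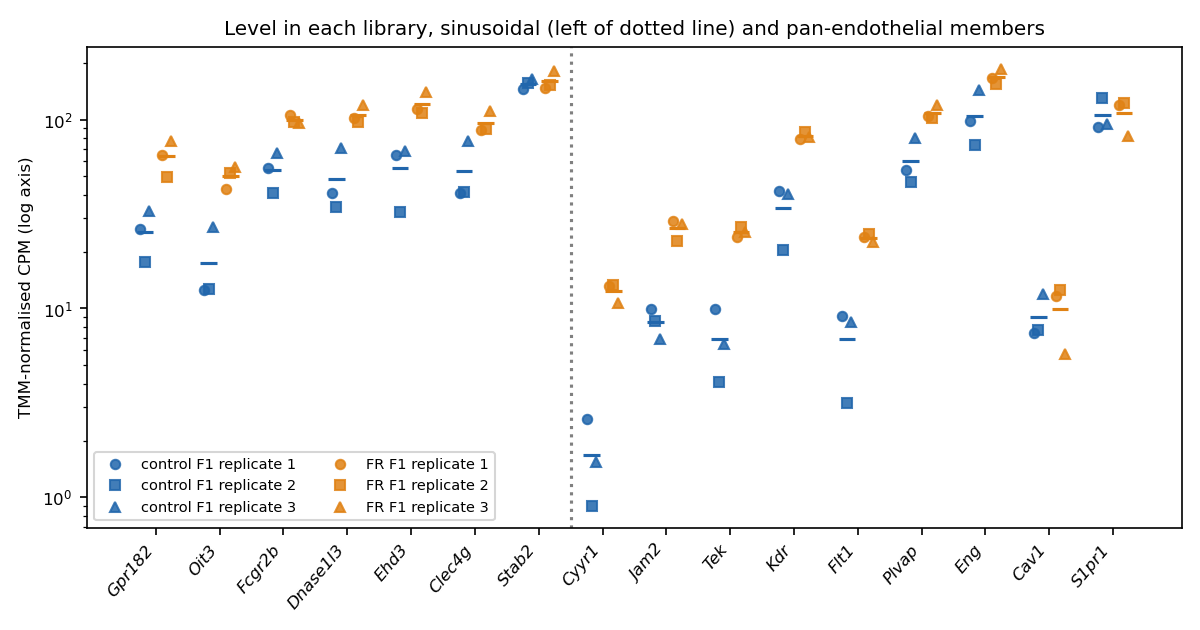
Level of 16 members in each library in CPM (log scale). Symbols are libraries, their shapes replicate numbers, and short lines the group means, with control F1 in blue and FR F1 in orange. The groups are apart in Gpr182 to Clec4g and in Cyyr1 to Eng, and overlap in Stab2, Cav1 and S1pr1.

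Pan-endothelial genes were higher in FR F1 livers by a median log2 fold change of 1.11 over 29 members, with 2 called higher and 0 lower. At an edgeR unadjusted p under 0.05, 23 were higher, and DESeq2 called 8, against 9.02% and 1.94% of all genes. The groups did not overlap in 23 of the 29, against 12.5%. All but Lyve1 of the 12 members that entered the test in part through the FR F1 libraries are in this class. That selection bears on its median, its counts and the ratio given below. At a minimum of 50 counts in 3 libraries, which left 28 members, the medians were 0.88 here and 1.15 for sinusoidal members. The FR F1 libraries alone can meet that filter too. Summed over the class, the level was 707, 535 and 810 CPM in control F1 replicates 1, 2 and 3 and 1245, 1199 and 1302 CPM in the FR F1 replicates. The ratio of the sinusoidal to the pan-endothelial geometric mean (0.5 CPM added to each gene) was 1.24, 1.48 and 1.44 on the log2 scale in control F1 and 1.27, 1.24 and 1.25 in FR F1 libraries. The groups overlapped, with 1 FR F1 library marginally below the lowest control.

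Cyyr1, a small membrane protein gene for which no settled role is given here (ENSMUSG00000041134.15, chromosome 16, 85421533 to 85553397), rose in FR F1 livers. It had 2.60, 0.901 and 1.53 CPM in control livers and 13.1, 13.3 and 10.7 CPM in FR F1 libraries, or 6, 2 and 4 counts against 35, 36 and 26. Every FR F1 value was above every control, and the log2 fold change was 2.84 ± 0.41 (edgeR adjusted p = 0.0323). With 0 control libraries at the filter level, Cyyr1 entered the test through the 3 FR F1 libraries alone. Its separation and its call are not independent of that selection. Jam2, which encodes a junctional adhesion molecule (ENSMUSG00000053062.15, chromosome 16, 84774123 to 84825928), rose from 9.97, 8.56 and 6.90 CPM to 29.2, 22.8 and 27.9 CPM. The groups were well apart, with a log2 fold change of 1.65 ± 0.26 (edgeR adjusted p = 0.0385).

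Both calls were lost when any of 4 libraries was left out. The edgeR adjusted p of Cyyr1 and Jam2 was 0.121 and 0.138 without control replicate 2, 0.168 and 0.179 without FR replicate 1, 0.150 and 0.145 without FR replicate 2, and 0.0949 and 0.130 without FR replicate 3. In each of these 4 fits edgeR called 0 of the 43 members. Without control replicate 1, 10 members were called, and without control replicate 3 also 10, all higher. Among the 6 such fits the log2 fold change stayed between 2.56 and 3.27 for Cyyr1 and between 1.51 and 1.78 for Jam2.

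Receptors of the vascular growth factors and their partners, 6 pan-endothelial genes and the sinusoidal Flt4, had a median log2 fold change of 1.26. The groups were apart in 7 of 7, against 12.5% of all genes with FR F1 higher. At the edgeR threshold 0 of 7 passed. An edgeR unadjusted p under 0.05 was found for 6, against 9.02% of all genes higher. Tek, the angiopoietin receptor TIE2 (chromosome 4, 94739289 to 94874976), had 9.97, 4.06 and 6.52 CPM in the controls and 23.9, 26.9 and 25.4 CPM in FR F1 libraries. The FR F1 values were close to each other and far above the highest control, with a log2 fold change of 1.88 ± 0.33 (edgeR adjusted p = 0.0504), and limma-voom called the gene higher. Kdr, which encodes VEGF receptor 2 (chromosome 5, 75932827 to 75978458), had 41.6, 20.3 and 40.3 CPM against 78.9, 85.5 and 80.8 CPM, a log2 fold change of 1.26 ± 0.26 (edgeR adjusted p = 0.0780). Flt1, which encodes VEGF receptor 1 (chromosome 5, 147561604 to 147726011), had 9.11, 3.16 and 8.44 CPM against 23.9, 24.7 and 22.6 CPM. Control replicate 2 was the lowest library for Tek, Kdr and Flt1 alike, and the log2 fold change of Flt1 was 1.77 ± 0.37 (edgeR adjusted p = 0.0780).

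Eng, which encodes endoglin, the co-receptor for BMP9 (chromosome 2, 32646595 to 32682669), had 98.4, 73.0 and 143 CPM in control livers and 166, 154 and 185 CPM in FR F1 libraries, a log2 fold change of 0.68 ± 0.23 (edgeR adjusted p = 0.20). It was among the members of highest level, at 39.9 CPM per kilobase. Ptprb, the phosphatase that restrains TIE2, had 1.45 ± 0.30, while Tie1, the orphan partner of TIE2, had 0.46 ± 0.21 with groups just apart.

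Junction and surface genes were higher by a median log2 fold change of 1.34, with 1 of 9, Jam2, past the threshold. Of all genes, 0.392% were called higher. Cldn5, the tight junction claudin of endothelium, had 1.48 ± 0.50, Emcn, the endomucin gene, 1.42 ± 0.58, and Pecam1, which encodes CD31, 0.93 ± 0.25. Cdh5, which encodes VE-cadherin, was the junction gene whose groups overlapped, with 26.9, 13.5 and 38.0 CPM in the controls and 43.4, 37.2 and 46.0 CPM in FR F1 libraries. One FR F1 library fell below the highest control, and the log2 fold change was 0.68 ± 0.33.

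Genes of caveolae, diaphragms and channels had unlike values, with a median log2 fold change of 1.07 and 0 of 4 past the threshold. An edgeR unadjusted p under 0.05 was found for 3, against 9.02% of all genes higher. Plvap, which encodes the diaphragm protein PV-1 (chromosome 8, 71497765 to 71511752), had 54.2, 46.4 and 79.8 CPM in control livers and 104, 102 and 119 CPM in FR F1 libraries, a log2 fold change of 0.85 ± 0.21 (edgeR adjusted p = 0.123). The groups were apart. Aqp1, a water channel gene, had 1.30 ± 0.28. The caveolin genes lie side by side on chromosome 6 with starts 25.15 kb apart. Cav2 (17281185 to 17289115) had 5.20, 0.901 and 1.15 CPM in the controls and 12.3, 11.4 and 6.57 CPM in FR F1 libraries, with 2.06 ± 0.61 on the log2 scale (edgeR adjusted p = 0.161). Its control counts were 12, 2 and 3, and it reached the filter level in 1 control library and 3 FR F1 libraries. Cav1 (17306335 to 17341452), the main caveolar coat gene, had 7.37, 7.66 and 11.9 CPM against 11.6, 12.5 and 5.74 CPM. Its groups overlapped, FR replicate 3 was its lowest library, and the log2 fold change was 0.15 ± 0.38 (95% interval -0.73 to 1.03; edgeR adjusted p = 0.854).

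S1pr1, the receptor gene for sphingosine 1-phosphate (chromosome 3, 115710433 to 115715072), was abundant at 35.0 CPM per kilobase and had the lowest log2 fold change of the 43 members. It had 91.5, 129 and 95.1 CPM in control livers and 119, 123 and 82.1 CPM in FR F1 libraries. The highest value was a control and the lowest an FR F1 library, at 0.037 ± 0.21 on the log2 scale (95% interval -0.44 to 0.52; edgeR adjusted p = 0.938). The other receptors of guidance and G protein signalling were Robo4, at 0.76 ± 0.22, and Ramp2, the partner of the adrenomedullin receptor, at 0.91 ± 0.35. Ramp2 overlapped between the groups. It shares 1103 of 3301 exonic bases with Vps25 on the same strand, so its counts are uncertain.

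The transcription factor genes Erg, Sox18 and Sox17, which mark endothelial identity and arterial fate, had log2 fold changes of 1.36 ± 0.43, 1.42 ± 0.61 and 0.97 ± 0.47 from low counts. Sox17 overlapped between the groups. Among the remaining products, Vwf, which encodes von Willebrand factor, had 1.11 ± 0.40, Egfl7, a secreted matrix protein gene, 0.47 ± 0.17, and Nos3, the endothelial nitric oxide synthase, 0.55 ± 0.39. Nos3 overlapped between the groups and shares 1040 of 4132 exonic bases with an antisense gene model. In all, 13 of the 43 members overlap an exon of another annotated gene. The members not given with a value, Esam, Icam2, Podxl and Rasip1, had log2 fold changes of 0.66, 1.34, 1.35 and 0.82, and in these the groups were apart. Rasip1 shares 654 of 3202 exonic bases with Izumo1 on the same strand and 498 with an antisense gene, so its counts are uncertain.

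**Figure D3:**
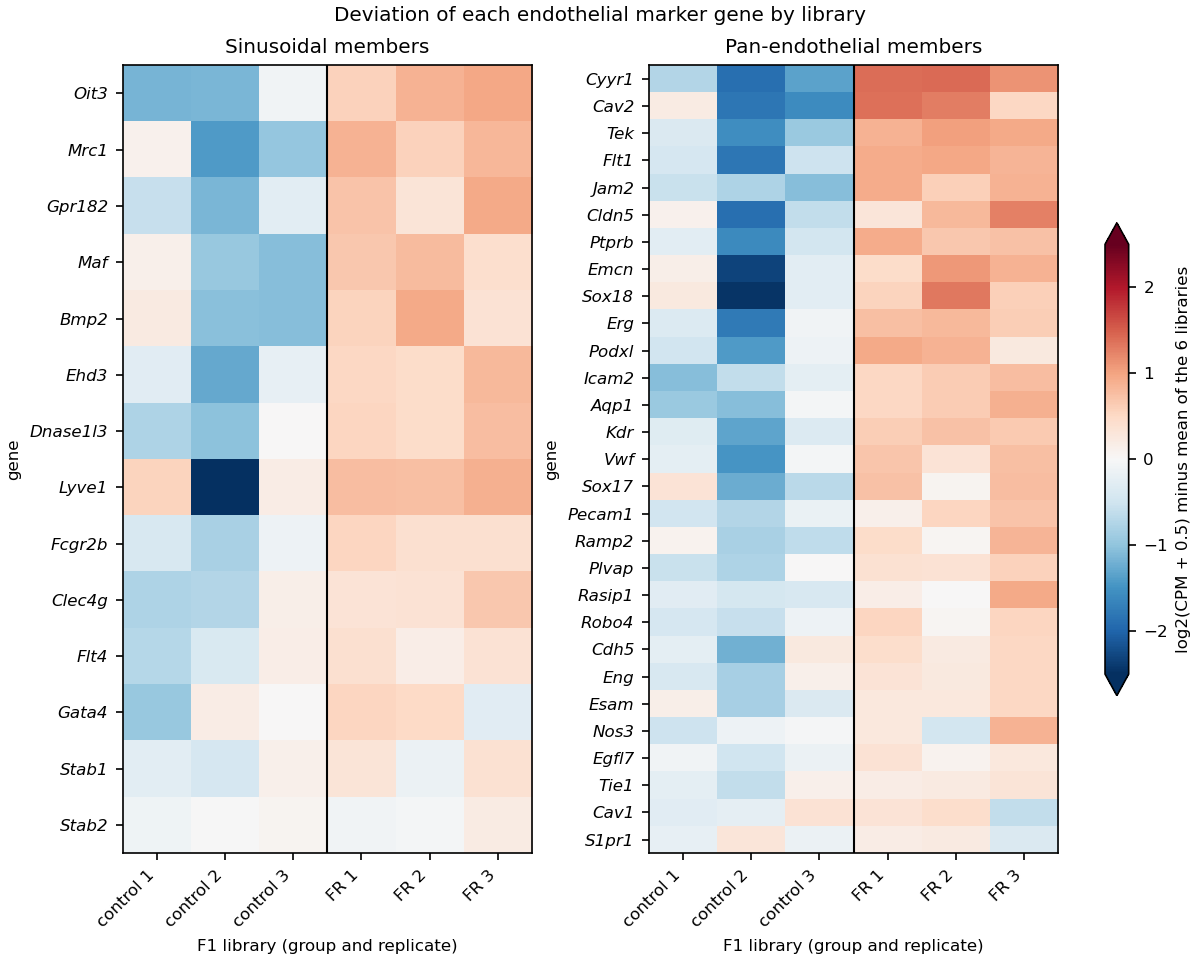
Deviation of each member in each library from its mean over the 6 libraries, on the scale of log2(CPM + 0.5), with sinusoidal genes on the left, pan-endothelial genes on the right and the largest log2 fold change at the top. The control F1 replicate 2 column is the darkest blue in both classes, with median deviations of -0.98 and -1.06, and Stab2 is the palest row, with no deviation beyond 0.21.

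Control F1 replicate 2 was the lowest library in 31 of the 43 members, 7 of 14 sinusoidal and 24 of 29 pan-endothelial. The median deviation over the 43 members, on the scale of log2(CPM + 0.5) from each gene's mean of the 6 libraries, was -0.29, -1.02 and -0.14 in control F1 replicates 1, 2 and 3 and 0.53, 0.47 and 0.67 in the FR F1 replicates. Without control replicate 2 the median log2 fold change was 0.78 for sinusoidal and 0.79 for pan-endothelial members, and 43 of 43 were positive.

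Level and difference were set side by side for the 43 members with no test. Of the 10 members under 3 CPM per kilobase, 9 reached the low-count filter in fewer than 3 control libraries, so that a low member had to be high in FR F1 livers to be kept, and no order of difference by level is read from them. Members of high level had both large and small differences. Aqp1, at 32.8 CPM per kilobase, had a log2 fold change of 1.30, and S1pr1, at 35.0 CPM per kilobase, had 0.037.

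**Figure D4:**
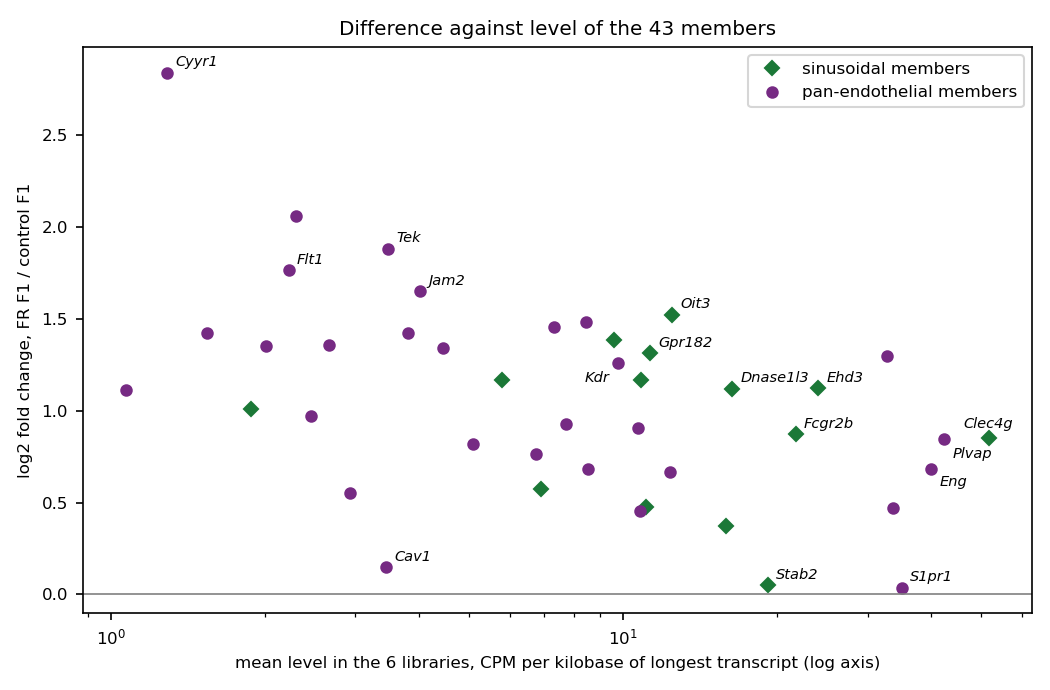
Log2 fold change of FR F1 over control F1 against the mean level in the 6 libraries in CPM per kilobase of the longest transcript, on a log axis, for sinusoidal (green diamonds) and pan-endothelial members (purple circles). Cyyr1 stands at 1.28 CPM per kilobase and 2.84, and Clec4g, the most abundant per length, at 51.8 and 0.85.

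Of 30 ligands and signalling partners of endothelium outside the 43, 22 were tested, 0 passed the edgeR threshold, 19 were positive and the median log2 fold change was 0.63. At an edgeR unadjusted p under 0.05, 7 were higher and 0 lower, where 9.02% of all genes were higher. The smallest p values belonged to Ets1, an ETS factor gene, and Nrp2, a co-receptor of VEGF-C. Ets1 had 24.7, 20.3 and 23.8 CPM in the controls and 48.2, 44.2 and 39.4 CPM in FR F1 libraries, at 0.94 ± 0.18 on the log2 scale (edgeR adjusted p = 0.0732). Nrp2 had 12.1, 17.1 and 15.7 CPM against 25.4, 36.5 and 33.6 CPM, at 1.08 ± 0.24 (edgeR adjusted p = 0.0928). In both genes the groups were apart. Of 11 genes that mark the position of endothelium along the lobule, 7 were tested, 0 passed (1 had an unadjusted p under 0.05), and the median was 0.17. Their smallest p values were those of Thbd, which encodes thrombomodulin, at 1.35 ± 0.43 (edgeR adjusted p = 0.179), and Kit, a receptor gene of central vein endothelium, at 0.69 ± 0.37 (edgeR adjusted p = 0.358).

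Markers of some other liver cells also had higher values in FR F1 livers. Stellate cell genes were positive in 14 of 14, with Pdgfra, which encodes a PDGF receptor, called higher at 1.53 ± 0.26 (edgeR adjusted p = 0.0456), a median of 0.87 and summed levels of 409 to 640 CPM in the controls against 917 to 1078 CPM. At an edgeR unadjusted p under 0.05, 10 of the 14 stellate genes were higher, and the groups were apart in 7. Among all genes, 9.02% were higher at that p and 12.5% had every FR F1 library above every control. Kupffer cell genes were positive in 11 of 12, with 0 called, a median of 0.42 and sums of 355 to 703 and 453 to 883 CPM, which overlapped, and 2 were higher at an unadjusted p under 0.05. Of 8 B cell genes 4 were tested and positive, with sums of 39.2 to 75.6 and 85.5 to 172 CPM, and 2 of the 4 were higher at that p. Hepatocyte genes were positive in 3 of 11, with a median of -0.16 and sums of 5883 to 7274 and 6158 to 6564 CPM. Of these, 0 were called. At an edgeR unadjusted p under 0.05, 2 were lower, Alb (albumin) at -0.32 ± 0.11 and Hnf4a (a hepatocyte transcription factor) at -0.35 ± 0.10. In both, every FR F1 library was below every control. Alb had 1865 to 2315 counts in a library and was below Apob, an apolipoprotein gene, in each. As duplicate handling is not given, whether counts of abundant hepatocyte genes were limited cannot be told. Their values are therefore not read as a contrast to the endothelial ones. Of 5 lymphatic genes 2 were tested, while Pdpn and Ccl21a had at most 6 and 10 counts in any library. Prox1, which hepatocytes also make, had a log2 fold change of 0.19 ± 0.13 with groups that overlapped. Reln, which stellate cells also make and which is counted in the stellate list too, had 1.05 ± 0.19. Its groups were apart (edgeR adjusted p = 0.0588). Lymphatic sums were 251 to 279 CPM in the controls against 325 to 359 CPM. Platelet genes summed to 26.1 to 34.7 CPM in the controls against 23.8 to 27.7 CPM, with 1 of 2 tested positive. The other had a log2 fold change of -1.49 and an edgeR unadjusted p under 0.05, with every FR F1 library below every control.
Erythroid genes were positive in 3 of 4 tested, with sums of 181 to 405 and 409 to 470 CPM, cholangiocyte genes in 1 of 2, with 43.3 to 138 and 71.4 to 95.2 CPM, and smooth muscle genes in 2 of 2, with 31.6 to 36.4 and 34.6 to 44.5 CPM. At an edgeR unadjusted p under 0.05, 1 erythroid gene was higher and 1 lower, the latter at -1.44 on the log2 scale. At that p 1 cholangiocyte gene was higher, and 0 smooth muscle genes differed. The 8 T and NK cell genes summed to 3.16 to 12.6 and 12.3 to 20.1 CPM and none passed the filter on low counts. No gene of these lists that the table holds was at 0 in all libraries. The part that the makeup of the tissue pieces had in the endothelial values was not tested.

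**Figure D5:**
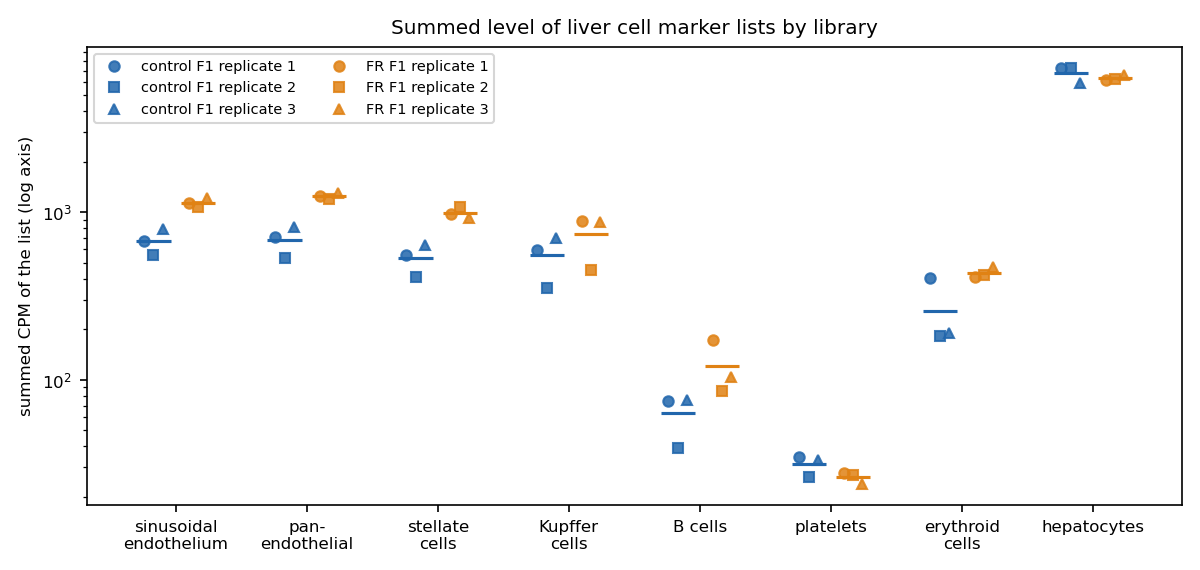
Summed CPM (log scale) of 8 marker lists by library, where symbols are libraries shaped by replicate number, short lines are group means, and control F1 is blue and FR F1 orange. The groups are apart in the sinusoidal, pan-endothelial, stellate and B cell lists and overlap in the Kupffer cell, platelet and hepatocyte lists. In the erythroid list they are barely apart, with 405 CPM in control F1 replicate 1 and 409 CPM in FR F1 replicate 1.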

How the data were processed

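Raw gene-level read counts for the 6 liver libraries came from a table that the authors deposited, and HTSeq, STAR, DESeq2, StringTie and the build mm10 are listed without role, order or version, per the submitters' processing notes. Neither the annotation release nor strand or duplicate handling is given in the sources used here. Each column was matched to a sample by the code in its description. Of 53715 Ensembl IDs, 53620 were matched to a symbol in GENCODE M21, as were all 43 members, 38 with the same ID version.

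The test was that of edgeR 4.0.16 under R 4.3.3 (filterByExpr at min.count 10 and min.total.count 15, TMM factors, glmQLFit and glmQLFTest, two-sided), with Benjamini-Hochberg adjustment over 13022 genes. The common dispersion of 0.0500 corresponds to a coefficient of variation of 22.4% between replicates. Standard errors were taken as the size of the log2 fold change over the root of its F statistic. CPM are TMM-normalised, and those per kilobase use the longest annotated transcript. Replicates within a group differed beyond counting noise (chi-square of 4.01 to 13.4 per degree of freedom), and each was kept as its own sample. Alternatives were DESeq2 1.42.0, limma-voom (limma 3.58.1) with and without sample weights, 3 scalings, 2 filters, a replicate block, a threshold of 0.10 and fits that leave out 1 library. The fit was tested on simulated counts.

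The members, their classes, the other lists and the motifs were chosen with earlier results of these data known, so no test was made over a list. By a rule for naming genes, values by library are given for members past the threshold, the 5 of smallest p and the 3 of highest CPM per kilobase in each class, and those with a log2 fold change under 0.2. Cdh5 and Cav2, the counts of Lyve1, and the non-members Alb, Apob, Hnf4a, Prox1, Reln, Calcrl and the neighbours of Jam2 and Cyyr1 were added after their values were seen.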

Additional observations from a re-analysis of the deposited data

How the results depend on the processing

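The count of changed genes, 109, was 457 with DESeq2, 1199 with limma-voom and sample weights, 1251 without a filter on low counts, 21 with the replicate block and 322 at a threshold of 0.10. For pan-endothelial members, 2 called, the same settings gave 8, 23, 13, 0 and 7, and a minimum of 50 counts in 3 libraries, which left 28 members, gave 1. For sinusoidal members, 0 called, they gave 7, 11, 9, 0 and 3. Leaving out 1 library at a time gave 7 to 651 genes, 0 to 7 pan-endothelial and 0 to 5 sinusoidal members. The cause was not tested. No setting called a member lower. With sample weights the median log2 fold change was 1.44 for sinusoidal and 1.52 for pan-endothelial members. Under the other settings the medians moved by less than the spread between replicates, 0.342 and 0.335. That spread is itself widened by control F1 replicate 2, and leaving this library out lowered the medians to 0.78 and 0.79.

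Signs turned in 3 members near 0. The log2 fold change of S1pr1 was -0.12 with sample weights. Leaving out 1 library at a time, S1pr1 ran from -0.067 to 0.21, the log2 fold change of Cav1 from -0.050 to 0.43 and the log2 fold change of Stab2 from -0.038 to 0.12. The other 13 members with values by library under the naming rule kept their direction in the settings run. Of 254 values of those 16 members, 187 kept sign and call, 50 gained the call, 10 lost it and 7 turned. Replicate numbers were not taken as pairs in the main fit. Deviations of same-numbered libraries correlated at -0.02, 0.11 and 0.15. Control replicates 2 and 3 correlated best with the FR library of their own number, and control replicate 1 with FR replicate 2. Under the replicate block Cyyr1 and Jam2 had an edgeR adjusted p of 0.0815 and 0.0894. Totals of 2279755 to 2730160 counts limit members such as Lyve1, Sox18 and Emcn, which had 0 or 1 counts in a control library.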

Other observations

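Jam2 and Cyyr1 lie on chromosome 16 with their lowest coordinates 647.41 kb apart, and together they span 779275 bases. Of the 11 genes in the table from the one to the other, 6 were tested. The 4 tested genes between them did not pass. Atp5j, a subunit gene of ATP synthase, had a log2 fold change of 0.48 ± 0.19, Gabpa, an ETS factor gene, 0.44 ± 0.23, and App, the amyloid precursor gene, 0.18 ± 0.15, with groups that overlapped in each (edgeR adjusted p of 0.250, 0.339 and 0.531). The antisense gene Gm49227 was negative, at -0.63 ± 0.51 (edgeR adjusted p = 0.531), and its groups overlapped too.

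Calcrl, which encodes the receptor that pairs with RAMP2, was noticed after its values were seen. It had 22.1, 4.51 and 3.84 CPM in control F1 and 43.4, 43.1 and 32.8 CPM in FR F1 libraries, at 1.98 ± 0.58 on the log2 scale (edgeR adjusted p = 0.155).

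Ratios of 5 kinds within a library were also picked with values known and were not tested. In 3 of them the groups were apart and in 2 they overlapped. Log2 of Cav2 over Cav1, with 0.5 CPM added to each, was -0.46, -2.54 and -2.91 in control F1 and 0.09, -0.13 and 0.18 in FR F1 libraries. Cav2 had 12, 2 and 3 counts in control F1 replicates 1, 2 and 3. It passed the low-count filter through the FR F1 libraries in part, so no result is read from this ratio. Log2 of Tek over Tie1 was -1.87, -2.69 and -2.81 against -1.06, -0.95 and -1.12. Log2 of Stab2 over the pan-endothelial geometric mean was 3.25, 4.18 and 3.47 against 2.41, 2.5 and 2.66, while the level of Stab2 itself did not separate the groups. That mean includes members that passed the low-count filter in part through the FR F1 libraries. As Stab2 was also picked with its value known, no result about Stab2 is read from this ratio. Log2 of Stab1 over Stab2 was -0.49, -0.73 and -0.27 against 0.09, -0.44 and -0.16, and log2 of Kdr over Flt4 was 0.72, -0.65 and -0.21 against 0.52, 0.86 and 0.60, both with overlap.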
